A study of Homo sapiens with 12 samples.

Results

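The transforming growth factor beta (TGF-beta) core pathway is described here through 10 genes: the ligands TGFB1, TGFB2 and TGFB3, the receptors TGFBR1, TGFBR2 and TGFBR3, and the intracellular proteins SMAD2, SMAD3, SMAD4 and SMAD7. They were taken by name from 58174 genes, with earlier results of these libraries known. They were chosen by their exon read levels in the 6 groups, with siXRN2 set against both controls in each line and the lines set against each other in controls. Comparisons of the lines in siXRN2 and of siNT with mock are made of the same values. All of these are therefore given for the 10 genes with standard errors (SE) and no p. All 10 passed the filter on low counts, TGFBR3 only through its LN229 libraries.

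RNA sequencing was done on LN229 and U251, established human lines labelled as glioblastoma multiforme, the most common malignant primary brain tumour of adults. Each line was reverse transfected with a mock mixture, a control siRNA (siNT) or an siRNA against XRN2 (siXRN2), and total RNA was taken after 72 h. XRN2 is a nuclear exonuclease that degrades RNA from its 5′ end and takes part in ending transcription. Each of the 6 groups holds 2 libraries (n = 2). The labels do not say whether replicates were separate cultures, so spread and p-values describe these libraries and may be technical. The labels do not give the sequence or number of siRNAs in siXRN2. LN229 and U251 were grown in different media with different serum percentages, so line and medium cannot be told apart.

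A TGF-beta dimer brings together TGFBR2, which binds the ligand and is always active as a kinase, and TGFBR1, the kinase that it activates. TGFBR3 (betaglycan) is a co-receptor that presents ligand, TGFB2 in particular. TGFBR1 phosphorylates SMAD2 and SMAD3, which enter the nucleus with SMAD4, and SMAD7 is induced by the pathway and inhibits TGFBR1. In glioblastoma the pathway is known for invasion, immune suppression and the upkeep of stem-like cells.

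Libraries held 4846768 to 7469052 exon reads, and 14232 genes were tested. XRN2 checked the labels: its counts per 1000000 reads (CPM) were 202 to 243 in LN229 controls and 25.6 and 33.5 with siXRN2, and 134 to 144 in U251 controls and 26.2 and 31.1 with siXRN2. Against siNT the XRN2 fold was 0.134 in LN229 (edgeR adjusted p = 3.75e-06) and 0.206 in U251 (adjusted p = 6.50e-05). The LN229 siNT pair and the U251 mock pair differed most within a group, with a chi-square per gene of 19.4 and 27.3 against 1.73 to 7.51 in the other 4 pairs, which does not say which library of a pair differs. LN229 siNT replicate 1 had the lowest share of intron reads, 5.58%. Of the glial markers, VIM, NES and CD44 were at 338 CPM or more in every library, GFAP ranged from 1.05 to 4.31 CPM in LN229 and from 2351 to 6903 CPM in U251, and AQP4 had at most 1 read. Among markers of other cells, PTPRC, CD3E, EPCAM and CDH1 had at most 2 reads, and AIF1, STMN2 and MOBP had 0.

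On GRCh38 coordinates as the tables give them, the ligands lie at chr19:41301587-41353911 (TGFB1), chr1:218346235-218444619 (TGFB2) and chr14:75958099-75982991 (TGFB3). The receptors lie at chr9:99104038-99154192 (TGFBR1), chr3:30606502-30694142 (TGFBR2) and chr1:91680343-91906335 (TGFBR3). The SMADs lie at chr18:47808957-47931146 (SMAD2), chr15:67063763-67195195 (SMAD3), chr18:51028394-51085045 (SMAD4) and chr18:48919853-48950711 (SMAD7). Reads were summed over the exons of each gene.

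Promoters are shown for TGFBR2, TGFBR3 and SMAD3, the receptor and SMAD genes whose LN229 siXRN2 libraries lay above all LN229 controls. Each is 1 RefSeq window on GRCh38.p14, from 250 bases before to 50 bases after a start, the window nearest the gene start in the deposited tables. TGFBR2 lies on the plus strand at chr3:30606351-30606650, TGFBR3 on the minus strand at chr1:91886102-91886401 and SMAD3 on the plus strand at chr15:67065352-67065651. Capitals mark GGGCGG or its reverse complement CCGCCC, the core of a GC box, and TGAGTCA or its reverse complement TGACTCA, the word read by AP-1.
TGFBR2: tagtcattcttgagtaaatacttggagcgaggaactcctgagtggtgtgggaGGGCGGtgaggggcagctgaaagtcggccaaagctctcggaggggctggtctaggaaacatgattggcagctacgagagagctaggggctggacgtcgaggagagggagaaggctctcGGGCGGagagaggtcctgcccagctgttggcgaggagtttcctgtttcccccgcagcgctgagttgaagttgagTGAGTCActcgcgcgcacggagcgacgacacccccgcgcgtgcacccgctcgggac
TGFBR3: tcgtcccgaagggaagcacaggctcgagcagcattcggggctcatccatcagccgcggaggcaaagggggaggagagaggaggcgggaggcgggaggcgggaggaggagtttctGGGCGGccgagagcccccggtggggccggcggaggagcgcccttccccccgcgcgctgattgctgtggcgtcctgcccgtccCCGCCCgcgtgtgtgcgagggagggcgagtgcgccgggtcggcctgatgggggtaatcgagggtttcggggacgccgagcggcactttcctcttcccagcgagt
SMAD3: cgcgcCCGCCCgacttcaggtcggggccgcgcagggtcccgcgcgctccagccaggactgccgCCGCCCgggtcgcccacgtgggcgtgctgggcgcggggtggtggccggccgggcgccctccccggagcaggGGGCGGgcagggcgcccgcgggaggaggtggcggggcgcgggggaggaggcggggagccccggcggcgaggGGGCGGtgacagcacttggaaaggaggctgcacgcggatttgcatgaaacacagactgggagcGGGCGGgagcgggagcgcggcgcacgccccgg
The TGFBR2 window holds 2 GC box words and 1 AP-1 word, the TGFBR3 window 2 GC box words and the SMAD3 window 5 GC box words. Over 35116 promoter windows of the same 300 bases, on either strand, 44.95% hold the GC box word and 4.95% the AP-1 word. All 10 genes had at least 1 window, 26 in all. The GC box word was in 11 of these 26 windows, from 7 genes. The AP-1 word was in 2 of the 26, the TGFBR2 window shown and a SMAD3 window not shown. Nothing is read from these counts. The palindrome GTCTAGAC, bound by SMADs, is in 0.202% of all windows and in none of the 26. The start of the TGFBR3 window lies 20184 bases inside the gene start of the tables, whereas those of TGFBR2 and SMAD3 lie 99 and 1839 bases from it. These words are matches of letters and were not tested for binding.

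In LN229 treated with siXRN2, TGFBR2 was about 2 times its control level, TGFBR3 and SMAD3 were higher, and TGFB1 and TGFBR1 were lower. In U251, TGFB3 was higher and TGFBR1 and TGFBR2 were slightly lower. Both siXRN2 libraries lay outside all 4 controls for 5 of the 10 genes in LN229, against 32.8% of all 14232 genes, and for 3 of the 10 in U251, against 24.4%. TGFBR1 was the 1 gene outside the controls on the same side in both lines, and TGFBR2 the 1 gene on opposite sides. These comparisons chose the genes, so nothing is read from the counts.

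**Figure D1:**
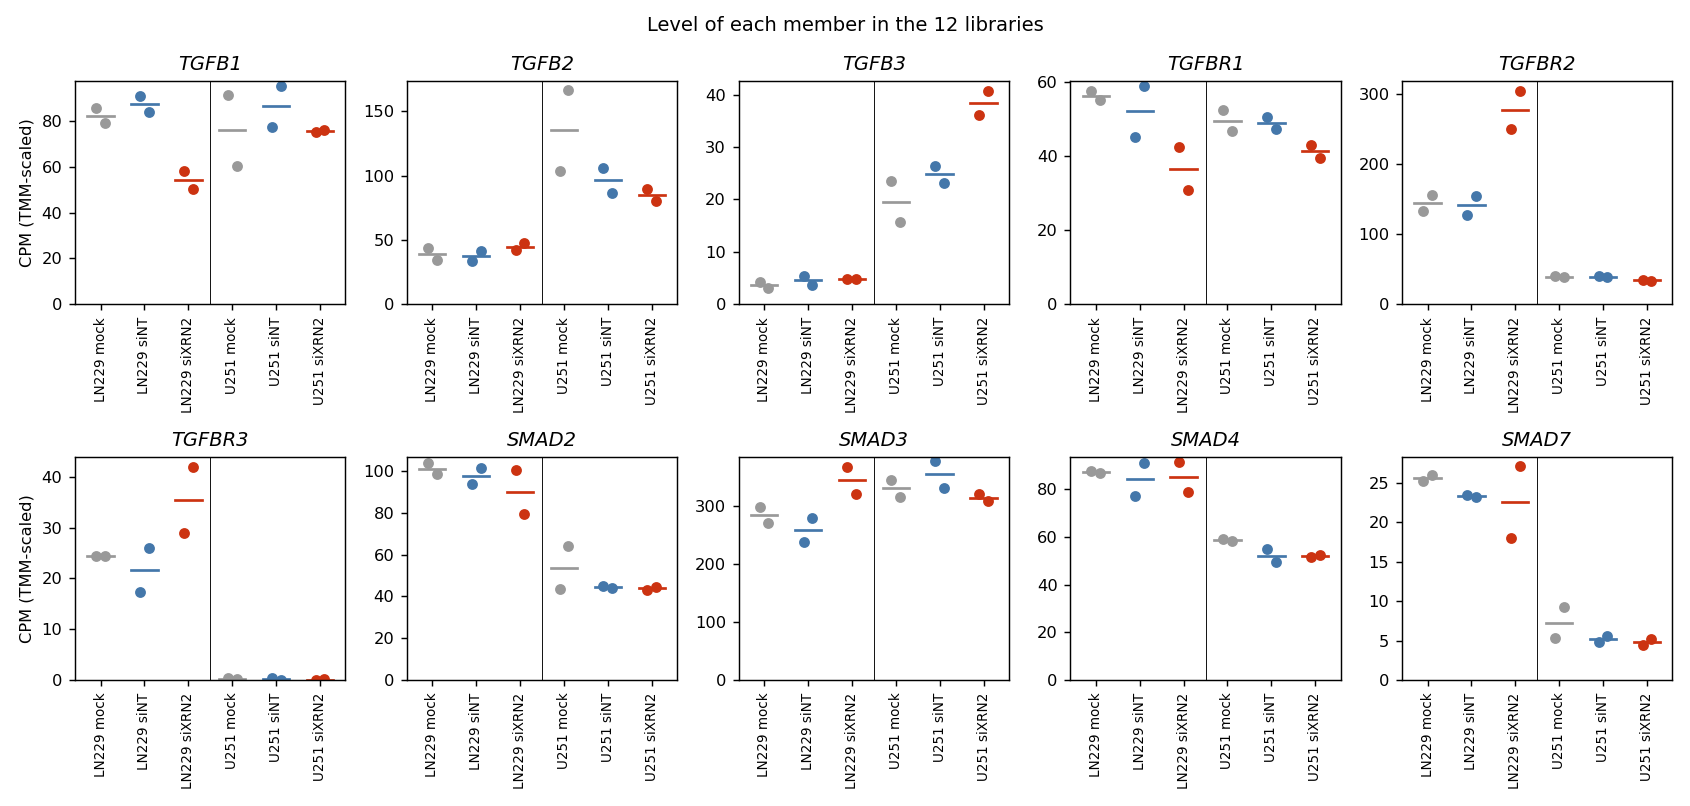
Level of each gene in the 12 libraries, in CPM scaled by edgeR's trimmed mean of M-values (TMM), with 1 point per library and a line at each group's mean. In LN229 the siXRN2 points lie above all control points for TGFBR2, TGFBR3 and SMAD3 and below them for TGFB1 and TGFBR1, and in U251 TGFBR3 lies at or near 0.

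TGFB1, the most widely expressed of the ligands, had 85.6 and 79.1 CPM in LN229 mock, 91.0 and 84.2 CPM in siNT, and 58.1 and 50.5 CPM in siXRN2. Both siXRN2 libraries were below all 4 controls. The log2 fold change of TGFB1 was -0.69 (SE 0.19) against siNT and -0.60 (SE 0.18) against mock. In U251, TGFB1 had 91.3 and 60.5 CPM in mock, 77.5 and 95.3 CPM in siNT, and 75.3 and 76.1 CPM in siXRN2. There the siXRN2 libraries lay within the range of the controls, and the log2 fold change was -0.19 (SE 0.18) against siNT and -0.00 (SE 0.18) against mock.

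TGFB2, a ligand first purified from glioblastoma cells as a suppressor of T cells, had 43.8 and 34.1 CPM in LN229 mock, 33.5 and 41.3 CPM in siNT, and 42.3 and 47.3 CPM in siXRN2. The groups overlapped, with a log2 fold change of 0.26 (SE 0.22) against siNT. In U251, TGFB2 had 104 and 167 CPM in mock, 106 and 86.8 CPM in siNT, and 89.3 and 80.4 CPM in siXRN2. The highest value belonged to mock replicate 2. The log2 fold change was -0.19 (SE 0.21) against siNT and -0.68 (SE 0.21) against mock, and the second value was -0.29 without that library.

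TGFB3, known for palate fusion and wound repair, was the ligand with the lowest level in LN229, at 3.05 to 5.45 CPM in all 6 libraries. In U251 it had 23.5 and 15.7 CPM in mock, 26.4 and 23.1 CPM in siNT, and 36.1 and 40.7 CPM in siXRN2. Both siXRN2 libraries were above all 4 controls. This gave a U251 log2 fold change of 0.63 (SE 0.21) against siNT and 0.98 (SE 0.22) against mock. In LN229 it was 0.07 (SE 0.31) against siNT, from 22 to 35 reads a library.

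The ligands were also the genes whose counts relied most on reads that the tables do not list as unique. Unique reads made up 53.5% of exon reads for TGFB1, 78.0% for TGFB2, 27.8% for TGFB3 and 82.2% for SMAD4, against 99.9% or more for the other 6 genes. Over all genes the share was 86.0% to 88.3% a library. From unique reads alone, the log2 fold change of TGFB1 in LN229 was -0.72 (SE 0.24) against siNT, and that of TGFB3 in U251 was 0.82 (SE 0.28). Unique TGFB3 reads in U251 stood at 5.11 to 7.30 per 1000000 unique exon reads (RPM) in controls and at 11.5 and 13.1 in siXRN2. Both directions were thus the same in unique reads. TGFB1 overlaps HNRNPUL1, CCDC97, AC011462.1 and TMEM91 on the opposite strand, and TGFB3 overlaps IFT43, and the library kit named in the labels does not mark strand, so reads in shared stretches cannot be assigned.

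**Figure D2:**
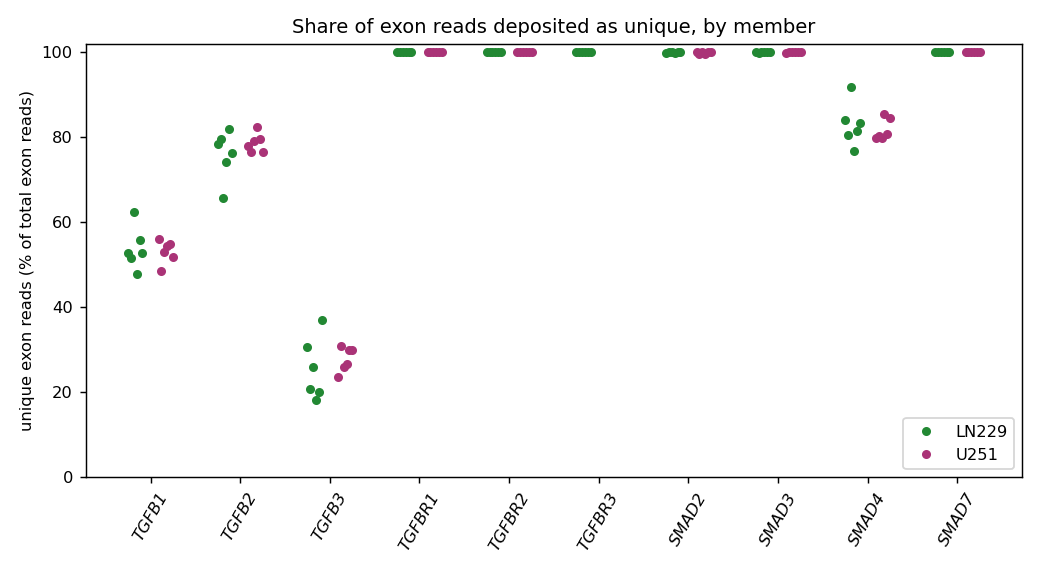
Unique exon reads as a percent of total exon reads for each gene, with 1 point per library (LN229 green, U251 purple) and libraries of 20 reads or fewer left out. TGFB3 is lowest, with 18.2% to 37.0% in a library, TGFB1 lies between 47.8% and 62.5%, and the receptors are at 100%.

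Among the receptors, TGFBR2 differed most between siXRN2 and controls. In LN229 it had 133 and 155 CPM in mock, 128 and 154 CPM in siNT, and 249.7 and 305 CPM in siXRN2. Both siXRN2 values were far above the highest control. The log2 fold change was 0.97 (SE 0.15) against siNT and 0.94 (SE 0.15) against mock, or folds of 1.96 and 1.92.

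In U251, TGFBR2 had 39.8 and 38.6 CPM in mock, 39.8 and 38.8 CPM in siNT, and 35.1 and 32.9 CPM in siXRN2. The 4 controls lay close together and both siXRN2 libraries were below them. These levels gave a log2 fold change of -0.21 (SE 0.16) against siNT and -0.20 (SE 0.16) against mock. The response in LN229 minus that in U251, both against siNT, was 1.18 (SE 0.22) on the log2 scale for TGFBR2, and 0.59 (SE 0.20) for SMAD3. For this difference edgeR passed 0 of 14232 genes at an adjusted p of 0.05, against 945 before adjustment and 15 with DESeq2.

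TGFBR1, the kinase that signals to SMAD2 and SMAD3, had 57.4 and 55.1 CPM in LN229 mock, 45.2 and 58.8 CPM in siNT, and 42.3 and 30.7 CPM in siXRN2. Both siXRN2 libraries were below the controls, replicate 1 by a small margin. The log2 fold change was -0.51 (SE 0.18) against siNT and -0.62 (SE 0.17) against mock. Without siXRN2 replicate 2 the first was -0.30, and without replicate 1 it was -0.77. In U251, TGFBR1 had 52.4 and 46.6 CPM in mock, 50.5 and 47.2 CPM in siNT, and 42.9 and 39.5 CPM in siXRN2, and both siXRN2 libraries were again below the controls. In U251 it was -0.24 (SE 0.17) against siNT and -0.26 (SE 0.17) against mock.

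TGFBR3 had 24.5 and 24.4 CPM in LN229 mock, 17.3 and 25.9 CPM in siNT, and 29.04 and 41.9 CPM in siXRN2. Both siXRN2 libraries were above the controls and differed from each other more than the mock pair did. Set against siNT the log2 fold change was 0.70 (SE 0.26) and set against mock 0.53 (SE 0.25), and without siXRN2 replicate 2 these were 0.42 and 0.25. In U251 every library had 0 to 2 TGFBR3 reads, under the floor of 3 reads (at most 0.619 CPM in a library), so no fold between U251 groups is given.

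SMAD3, one of the pair of SMADs phosphorylated by TGFBR1, had 298 and 269 CPM in LN229 mock, 238 and 279 CPM in siNT, and 367 and 321 CPM in siXRN2. Both siXRN2 libraries were above the controls, replicate 2 by less than the spread within mock. Set against siNT the log2 fold change was 0.41 (SE 0.14), and against mock 0.28 (SE 0.14). In U251, SMAD3 had 345 and 314 CPM in mock, 377 and 331 CPM in siNT, and 320 and 308 CPM in siXRN2. The U251 groups overlapped, with a log2 fold change of -0.17 (SE 0.14) against siNT.

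The other SMADs differed between siXRN2 and siNT by less than their SE in both lines. SMAD2 had 79.4 to 104 CPM over the 6 LN229 libraries and 43.2 to 64.2 CPM over the 6 U251 libraries, with a log2 fold change against siNT of -0.12 (SE 0.17) in LN229 and -0.03 (SE 0.18) in U251. SMAD4, the partner shared with bone morphogenetic protein (BMP) signalling, had 77.3 to 91.6 CPM in LN229 and 49.7 to 59.1 CPM in U251, with log2 fold changes of 0.02 (SE 0.14) and -0.00 (SE 0.14). SMAD7, the inhibitor that TGF-beta itself induces, had 18.0 to 27.2 CPM in LN229 and 4.46 to 9.20 CPM in U251, with log2 fold changes of -0.05 (SE 0.23) and -0.10 (SE 0.32). In each line the siXRN2 libraries overlapped the controls for all 3 genes.

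**Figure D3:**
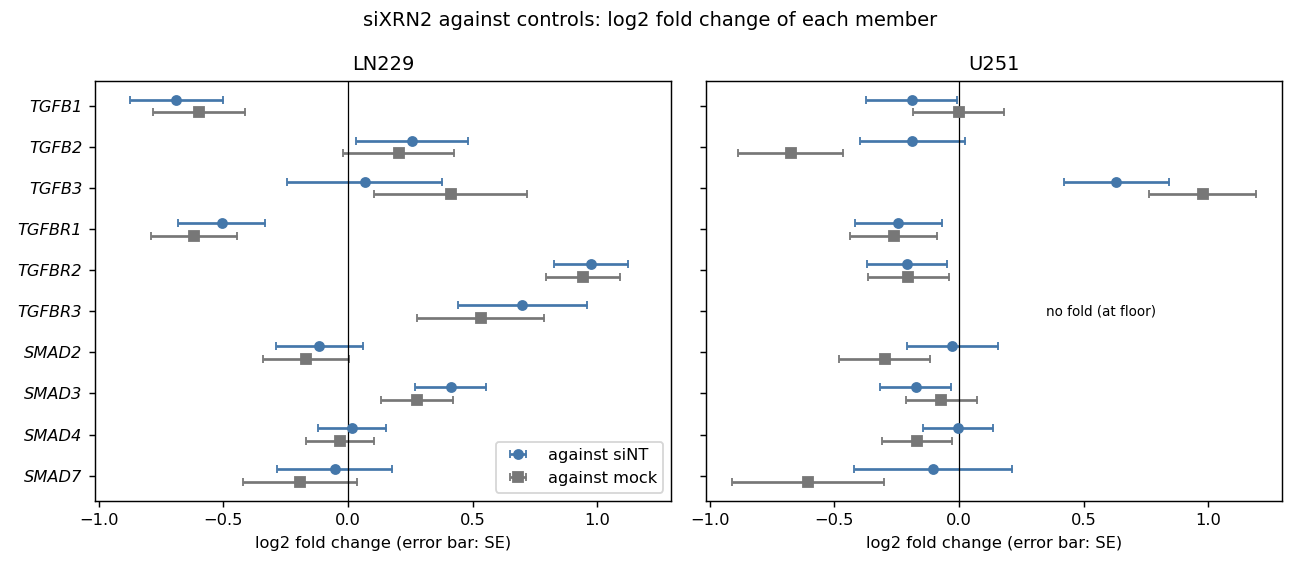
Log2 fold change of each gene in siXRN2 against siNT (circles) and against mock (squares), in LN229 at the left and U251 at the right, with SE as error bars and no test. TGFBR2 stands at 0.97 and 0.94 in LN229 and at -0.21 and -0.20 in U251, and TGFBR3 has no fold in U251.

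Markers of other cells differed between the LN229 siXRN2 libraries and their controls beside these genes. The summed level of 4 fibroblast and pericyte markers was 66.5 and 86.3 CPM in siXRN2 against 119 to 132 CPM in LN229 controls. That difference lay in LUM, at 24.4 and 43.7 CPM against 80.7 to 91.2 CPM, whereas PDGFRB was at 21.8 and 26.3 CPM against 13.9 to 17.8 CPM, and DCN and COL6A3 overlapped the controls. The summed glial markers were at 3315 and 4256 CPM against 4935 to 6441 CPM. VIM made up most of that sum, at 1870 and 2473 CPM against 3064 to 4172 CPM. NES, SOX2 and CD44 were also below the controls, and the other glial markers overlapped. The immune markers were at 1.58 and 5.29 CPM against 7.99 to 10.1 CPM, mostly CD68. The endothelial markers were at 7.60 and 9.29 CPM against 3.23 to 4.48 CPM. Of these VWF, KDR and CDH5 were above the controls at 27 reads or fewer a library, and PECAM1 and TEK overlapped. The neuronal and epithelial sums overlapped the controls in LN229 and in U251. In U251 the immune sum, mostly CD68, was 66.6 and 70.1 CPM against 48.0 to 64.5 CPM in controls. The U251 endothelial sum was 13.7 and 15.2 CPM against 16.4 to 21.5 CPM. There KDR was below the controls, at 6.92 and 9.36 CPM against 12.9 to 18.4 CPM, whereas CDH5 and VWF were above them. The U251 fibroblast and pericyte sum was 41.7 and 43.5 CPM against 48.6 to 82.0 CPM, with COL6A3 below the controls and PDGFRB overlapping them. The U251 glial sum overlapped the controls. The part of these markers in the values above was not tested. In bulk libraries fewer cells of a type and less RNA per cell cannot be told apart.

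Intron reads, the part of the deposited counts nearest to unspliced RNA, were few for these genes. TGFBR2 had 2.46 and 3.04 intron RPM of all gene reads in LN229 mock, 0.390 and 2.74 in siNT, and 2.51 and 3.37 in siXRN2, from 41, 19 and 39 reads in the groups. These groups overlapped, while the exon reads of TGFBR2 did not. TGFB3 had 2.22 to 4.12 intron RPM in U251 controls and 4.83 and 5.13 in siXRN2, so there the intron and exon reads were both above the controls. TGFB1 had 13.9 and 14.4 intron RPM in LN229 mock, 10.6 or more in siNT and 8.78 and 10.5 in siXRN2, below the controls as its exon reads were. The low end of the control range for TGFBR2 was LN229 siNT replicate 1, the library with few intron reads overall.

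The comparison of siNT with mock is the difference of comparisons that chose the genes, siXRN2 against mock and siXRN2 against siNT. It is therefore given for the 10 genes without p. Of all genes 0% passed edgeR's test in either line. Before adjustment 647 genes in LN229 and 682 in U251 had a p below 0.05, while DESeq2 made 1 and 0 calls. The log2 fold changes of the 10 genes ran from -0.17 for TGFBR3 (SE 0.26) to 0.34 for TGFB3 (SE 0.32) in LN229. In U251, apart from TGFBR3 at the floor, they ran from -0.50 for SMAD7 (SE 0.30) to 0.35 for TGFB3 (SE 0.22). Without U251 mock replicate 1, TGFB2 had -0.79 there, and without mock replicate 2 it had -0.10.

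Levels in the 2 lines are given as a description. In the mock and siNT libraries, LN229 had more TGFBR2, TGFBR3, SMAD2, SMAD4 and SMAD7, and U251 had more TGFB2, TGFB3 and, by a small margin, SMAD3. The log2 difference, LN229 over U251, was 1.86 (SE 0.11) for TGFBR2, 1.98 (SE 0.19) for SMAD7, 1.02 (SE 0.13) for SMAD2 and 0.63 (SE 0.10) for SMAD4. It was -1.58 (SE 0.16) for TGFB2, -2.45 (SE 0.19) for TGFB3 and -0.33 (SE 0.10) for SMAD3. TGFB1 and TGFBR1 differed by 0.07 (SE 0.13) and 0.14 (SE 0.12). Without TMM factors the median of all genes in controls was 0.20 in place of 0.03. SMAD3 was then at -0.17, TGFB1 at 0.24 and TGFBR1 at 0.31. The TGFB1 difference changed sign in 3 of 20 alternatives.

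TGFBR3 had 585 reads in the 4 LN229 controls and 5 in the 4 U251 controls, a ratio of 109 after scaling for depth. Its 95% exact interval of 46.6 to 338 covers counting error only. The comparison chose the gene, so ratio and interval are a description and no test. In the siXRN2 libraries it had 453 reads against 1, a ratio of 438 with an interval of 78.3 to 17356. That 1 read is under the floor, and with 3 reads in its place the ratio is 146. Nothing is therefore read from a larger ratio in siXRN2 than in controls. Its LN229 libraries had 86 to 239 reads each and its U251 libraries 0 to 2.

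In the siXRN2 libraries the difference between lines is the difference in controls plus that in response, so it is made of values that chose the genes and was not tested for them. TGFBR2 was higher in LN229 by 3.03 (SE 0.16) on the log2 scale, or 8.15-fold, SMAD7 by 2.21 (SE 0.27), SMAD2 by 1.04 (SE 0.18) and SMAD4 by 0.71 (SE 0.14). TGFB3 was lower in LN229, with a log2 difference of -3.01 (SE 0.25), as was TGFB2 with -0.92 (SE 0.22) and TGFB1 with -0.48 (SE 0.18). TGFBR1 differed by -0.17 (SE 0.18) and SMAD3 by 0.13 (SE 0.14). Over all 12 libraries the lines did not overlap for 7 genes (TGFB2, TGFB3, TGFBR2, TGFBR3, SMAD2, SMAD4 and SMAD7), against 49.5% of all genes, and nothing is read from that count. Without TMM factors the median of all genes in siXRN2 was 0.25 in place of 0.02, TGFB1 was at -0.25, SMAD3 at 0.36 and TGFBR1 changed sign to 0.06.

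**Figure D4:**
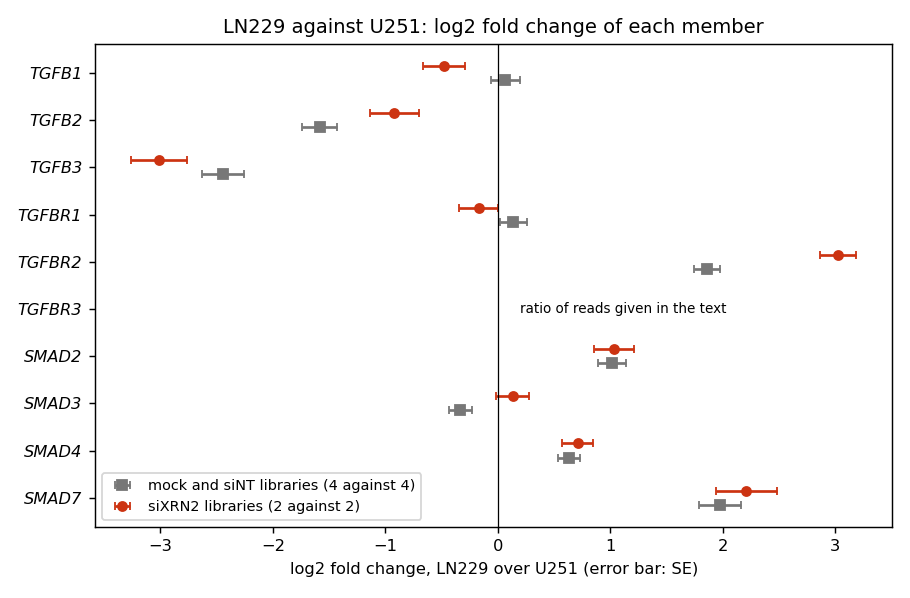
Log2 fold change of LN229 over U251 for each gene in the mock and siNT libraries (squares, 4 against 4) and in the siXRN2 libraries (circles, 2 against 2), with SE as error bars. TGFBR2 lies at 1.86 and 3.03, TGFB3 at -2.45 and -3.01, and TGFBR3 is given as a ratio of reads in the text.

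Levels can be compared between genes only per length, here as deposited transcripts per 1000000 (TPM). TPM rests on total exon reads, of which unique reads were 53.5% for TGFB1, 78.0% for TGFB2, 27.8% for TGFB3 and 82.2% for SMAD4. In both lines the ranks and overlaps of these genes can differ in unique reads, for which no level per length was made. In the 4 LN229 controls TGFBR2 had 123 ± 18.9 TPM (SD, n = 4), SMAD3 120.8 ± 18.7 TPM and TGFB1 106 ± 4.76 TPM, and their ranges overlapped in that order. TGFBR1 (32.2 TPM), TGFB2 (30.1 TPM), SMAD7 (26.9 TPM) and SMAD4 (26.5 TPM) followed, each overlapping the next. SMAD2 (11.1 TPM) and TGFBR3 (10.8 TPM) overlapped each other below them, and TGFB3 (3.32 TPM) was lowest.

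In the 4 U251 controls SMAD3 led with 137 ± 10.7 TPM (SD, n = 4), above TGFB1 with 91.1 ± 16.5 TPM and TGFB2 with 82.2 ± 26.1 TPM, which overlapped. TGFBR2 (30.4 TPM) and TGFBR1 (26.2 TPM) came next without overlap. TGFB3 (16.4 TPM) and SMAD4 (15.4 TPM) overlapped, as did SMAD7 (6.17 TPM) and SMAD2 (4.94 TPM), and TGFBR3 was at 0.0904 TPM. With siXRN2, TGFBR2 reached 256 TPM in LN229, above SMAD3 with 163 TPM, whereas in U251 it had 26.5 TPM against 126 TPM for SMAD3. The exon length behind SMAD2 is 36366 bases in the tables, against 3238 to 13123 bases for the other 9 genes, which lowers its level per length.

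Other genes of the pathway were taken from 5 lists: ligand release from its latent form, co-receptors and receptor regulators, SMAD partners, the activin and BMP branch, and TGF-beta responsive genes. Of 114 genes, 101 were tested. In LN229 siXRN2 against siNT, 1 gene rose and 3 fell, 3.96% of those tested against 3.16% of all genes, and against mock 1 rose and 2 fell, 2.97% against 1.29%. The median log2 fold change over the 101 was -0.09, against -0.00 over all genes. In U251 siXRN2 0 of 101 were called against siNT, with a median of 0.00, and 0 against mock, with a median of -0.03, where 0.00703% and 0.0492% of all genes were called.

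Among the 18 tested genes of ligand release, 2 fell and 0 rose in LN229 against siNT, with a list median of -0.19. ITGB1, an integrin subunit that pairs with alpha V among others, had 1156 and 1118 CPM in LN229 mock, 961 and 1283 CPM in siNT, and 552 and 285 CPM in siXRN2. It fell by 1.42 (SE 0.24, adjusted p = 0.0141) on the log2 scale against siNT and by 1.44 (SE 0.24, adjusted p = 0.0163) against mock. The pair of siXRN2 libraries differed widely, with both below all controls. ITGB5, a subunit of an integrin that can release latent TGF-beta, had 187 to 195 CPM in the 4 controls and 134 CPM in both siXRN2 libraries, and fell by 0.51 (SE 0.12, adjusted p = 0.0464) against siNT. Against mock 1 gene of this list fell, and its median was -0.36.

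Among the 18 tested co-receptors and receptor regulators, 0 were called against siNT and 1 fell against mock. NEDD4L, a ubiquitin ligase that limits TGF-beta signalling by acting on activated SMAD2 and SMAD3, had 70.6 to 87.8 CPM in LN229 controls and 53.3 and 47.9 CPM in siXRN2. It fell by 0.71 (SE 0.15, adjusted p = 0.0372) against mock, and against siNT its log2 fold change was -0.59 (SE 0.15, adjusted p = 0.0508). Both siXRN2 libraries were below all controls. ZFYVE9, the adaptor SARA that brings SMADs to the receptor, had the smallest p of those with a positive value against siNT, 0.69 (SE 0.20, adjusted p = 0.0752). Of the 18 tested SMAD partners 0 were called in either comparison, with medians of 0.13 against siNT and -0.12 against mock. TGIF2, a co-repressor of SMADs, came nearest with a positive value of 0.49 (SE 0.19, adjusted p = 0.155).

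In the activin and BMP branch 1 of 21 tested genes fell against siNT and 0 were called against mock. ID1, a direct target of BMP signalling, had 51.4 and 44.3 CPM in LN229 mock, 69.6 and 40.3 CPM in siNT, and 26.5 and 21.9 CPM in siXRN2. It fell by 1.17 (SE 0.23, adjusted p = 0.0235) against siNT, and its log2 fold change against mock was -0.98 (SE 0.23, adjusted p = 0.0565). The highest control was LN229 siNT replicate 1, and without it the value against siNT was -0.70 (adjusted p = 0.0979).

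Of 26 tested TGF-beta responsive genes 1 rose and 0 fell in LN229, and the list median was -0.12 against siNT and -0.08 against mock. The 1 gene was HMOX1, heme oxygenase, which is known above all as a gene of the oxidative stress response. HMOX1 had 37.6 and 42.3 CPM in mock, 35.9 and 47.0 CPM in siNT, and 158 and 341 CPM in siXRN2. It rose on the log2 scale by 2.58 (SE 0.49, adjusted p = 0.0325) against siNT and by 2.64 (SE 0.48, adjusted p = 0.0423) against mock. Its siXRN2 libraries differed from each other by more than 2 times, and without replicate 2 the values were 1.92 and 1.98. The collagen gene COL1A1, a classic target, had 280 to 406 CPM in LN229 controls and 370 and 389 CPM in siXRN2, which overlapped. TGFBI and THBS1 were not called in either line.

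None of these LN229 calls held in all of 21 alternatives. All 7 (4 against siNT and 3 against mock) were lost with LN229 fitted alone (adjusted p from 0.0607 to 0.183) and without LN229 siXRN2 replicate 2 (0.151 to 0.450). Without LN229 siNT replicate 1 the 4 calls against siNT were lost (0.0666 for ITGB1, 0.100 for ITGB5, 0.0979 for ID1 and 0.211 for HMOX1), and without either LN229 mock library the 3 against mock (0.116 to 0.345). HMOX1 against siNT was also lost without any 1 library of LN229 mock, U251 siNT or U251 siXRN2 (0.0625 to 0.0650), and against mock without either library of LN229 siNT, U251 siNT or U251 siXRN2 (0.0604 to 0.0820). NEDD4L against mock was lost without any 1 library of U251 siNT or U251 siXRN2 (0.0742 to 0.0759), and ID1 without either U251 siXRN2 library (0.0507 and 0.0506). ITGB5 was lost without any 1 library of LN229 mock, LN229 siXRN2, U251 siNT or U251 siXRN2 (0.0784 to 0.344), without TMM factors (0.0818), with DESeq2's size factors (0.0513) and with no filter (0.0540). No gene of the lists passed edgeR's test of a difference in response between the lines, where ID1 had -1.23 (SE 0.31, adjusted p = 0.526) and ITGB1 -0.98 (SE 0.34, adjusted p = 0.709).

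**Figure D5:**
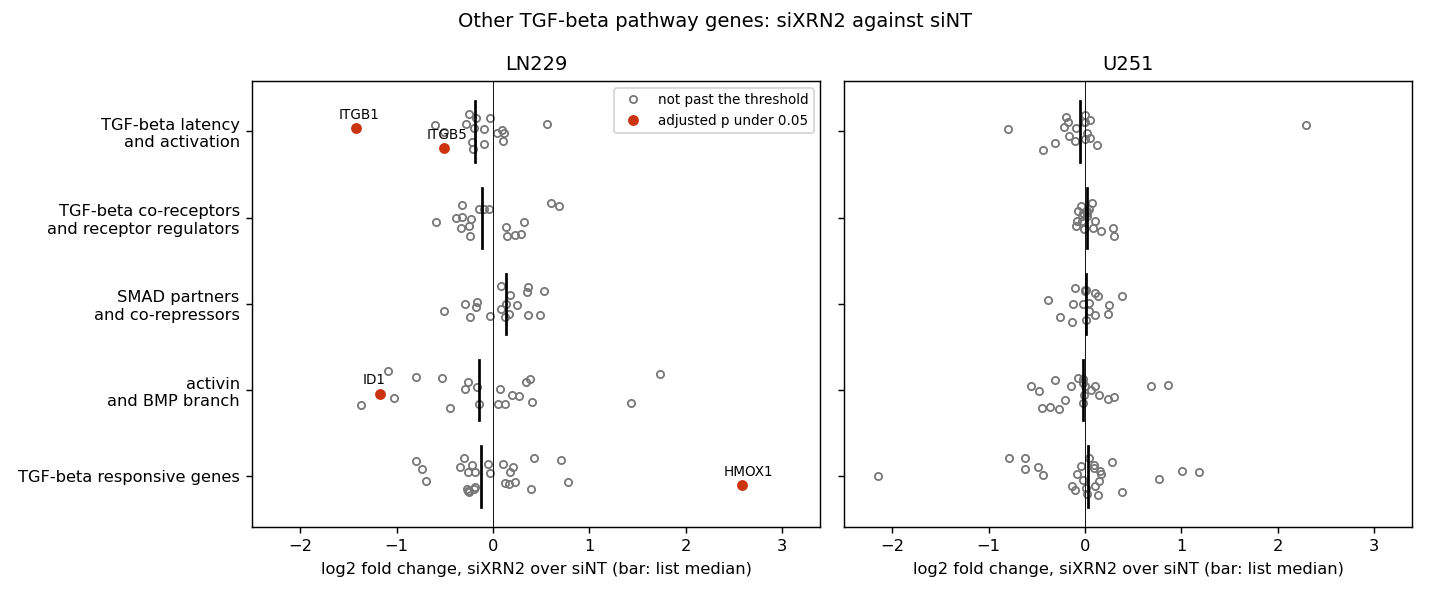
Log2 fold change of siXRN2 over siNT for the 101 tested genes of the 5 pathway lists in LN229 and U251, with 1 point per gene, filled where the adjusted p is under 0.05, and a bar at each list's median. HMOX1 lies at 2.58 and ITGB1 at -1.42 in LN229, and no point is filled in U251.

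Between the lines the lists differed widely. In controls 42 of 101 genes were higher and 34 lower in LN229, 75.2% against 67% of all genes. In siXRN2 libraries 44 were higher and 33 lower, 76.2% against 54.3% of all genes. MMP2, a matrix protease that can release latent TGF-beta, had 1815 to 2352 CPM in LN229 controls and 141 to 148 CPM in U251 controls, a log2 difference of 3.89 (SE 0.11, adjusted p = 1.66e-11). ENG, a co-receptor related to TGFBR3, was higher in LN229 by 4.04 (SE 0.11, adjusted p = 1.07e-11), and BAMBI, a decoy receptor, by 2.39 (SE 0.16, adjusted p = 3.49e-08). LTBP1, which anchors latent TGF-beta in the matrix, was lower in LN229 with -1.56 (SE 0.14, adjusted p = 4.47e-07).

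The collagen targets split between the lines. COL1A1 was 54.1-fold higher in LN229 controls (log2 5.76, SE 0.16, adjusted p = 1.61e-11), with 280 to 406 CPM against 4.197 to 7.16 CPM. COL1A2 went the other way, with 9.68 to 16.2 CPM in LN229 controls against 1424 to 2267 CPM in U251 controls (log2 -7.22, SE 0.18, adjusted p = 4.79e-12). These genes encode the 2 chains of type I collagen. TGFBI, a target named for its induction by TGF-beta, was lower in LN229 with -2.75 (SE 0.10, adjusted p = 9.57e-11), and ID1 and ID2 were lower with -1.88 (SE 0.16, adjusted p = 2.29e-07) and -2.64 (SE 0.14, adjusted p = 3.74e-09).

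Genes most like each of the 10 were sought over the 12 libraries by Pearson's r of log2 CPM after each line's mean was subtracted, among 10377 genes. The r is a description, and all points share their libraries and depth. TGFBR2 was most like PCDH7 (r = 0.96), P2RX7 (r = 0.96), HSPA12A (r = 0.95), CTNNA1 (r = 0.95) and COL11A1 (r = 0.95). COL11A1 had 933 to 1349 CPM in LN229 controls and 2173 and 2209 CPM in LN229 siXRN2, above the controls as TGFBR2 was. In U251 it had 572 to 655 CPM in controls and 554 and 590 CPM in siXRN2. These overlapped, whereas TGFBR2 was below its U251 controls. PCDH7 had 41.8 to 53.4 CPM in LN229 controls, 69.7 and 88.0 CPM in LN229 siXRN2, and 0 reads in U251. The nearest gene was CHAF1B for TGFB1 (r = 0.96), ETS2 for TGFB2 (r = 0.97), ISYNA1 for TGFB3 (r = 0.94), ECT2 for TGFBR1 (r = 0.99) and ZNRF2 for TGFBR3 (r = 0.88). For the SMADs it was NRG1 for SMAD2 (r = 0.97), STRIP2 for SMAD3 (r = 0.94), MTMR6 for SMAD4 (r = 0.91) and DPAGT1 for SMAD7 (r = 0.92).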

How the data were processed

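Total RNA of LN229 and U251 cells was sequenced in 12 libraries, 2 in each of 6 groups taken from the sample titles. Libraries were made with an Illumina TruSeq RNA kit, per the labels' protocols. The authors deposited 1 table per library with read counts per gene (total exon, unique exon, exon-exon and intron reads), with TPM, and with RPKM made from total exon reads and exon length, per the file headers. The RPKM values were not used further. Aligner and counter were not given in the sources used here. GRCh37 and hg19 are the builds in the submitters' processing notes, whereas 96.8% of the gene identifiers shared with GENCODE v29 carry its GRCh38 positions. TPM equalled total exon reads over exon length, scaled to the library, for the 10 genes.

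Total exon counts were tested with edgeR 4.0.16 in R 4.3.3 (quasi-likelihood, robust, TMM factors, filterByExpr at min.count 10 and min.total.count 15). The fit held 1 mean per group over all 12 libraries, with Benjamini-Hochberg adjustment over 14232 genes and a threshold of 0.05. CPM are TMM-scaled. Standard errors are on the log2 scale, each the size of the log2 fold change over the square root of edgeR's F. A value over its SE is therefore not independent of that test. Alternatives were other scaling, DESeq2 1.42.0, other filters, a replicate block, unique exon reads, each line alone and leaving out libraries.

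The 10 genes, the 5 pathway lists and the marker lists were chosen with earlier results of these data known. Named were XRN2, the 10 genes, called list genes or, where a list had none, its nearest genes in each direction, genes that overlap 1 of the 10, and the genes most like each by correlation (at a mean of 10 CPM or more). COL1A1 against siXRN2 in LN229, TGFBI and THBS1 were named after their values were seen. The sum of 1 of the 7 marker lists is not reported here.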

Additional observations from a re-analysis of the deposited data

Results flagged for a closer look

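The siXRN2 libraries lay on opposite sides of the controls for TGFBR2 in the 2 lines. In LN229 both were above all 4 controls, as 32.8% of all genes were apart from them in either direction, and in U251 both were below all 4, where 24.4% were apart. The U251 log2 fold changes, -0.21 against siNT and -0.20 against mock (SE 0.16 each), were little more than their SE. The log2 response to siXRN2 against siNT was 1.18 higher in LN229 than in U251 (SE 0.22), and over the alternatives this value ran from 1.03, without LN229 siXRN2 replicate 2, to 1.32, without LN229 siNT replicate 2. The difference was not tested for TGFBR2, since the gene was chosen from these comparisons. Groups of 2 libraries are too small for a check of single outlying libraries.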

How the results depend on the processing

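Of the 10 genes, TGFBR1, TGFBR2, TGFB2 and SMAD3 kept their direction against both controls in both lines under all 21 alternatives. TGFB1 and TGFBR3 did so in LN229 and TGFB3 in U251. Where both siXRN2 libraries lay outside all controls, leaving out libraries could hardly turn the direction. TGFB2 in LN229 and SMAD3 in U251 kept it although their groups overlapped. Nothing is therefore read from a kept direction. No tested gene named here changed direction while called. Of the list genes named for a call between the lines, 24 of 29 in siXRN2 libraries stayed called in all 20 alternatives (the others were TGIF2, ITGAV, RUNX1, SMAD5 and SMURF2), and in controls 28 of 29 did (the other was TGIF2). Called genes numbered 450 in LN229 siXRN2 against siNT and 183 against mock, 1 and 7 in U251, and 0 for siNT against mock and for the difference between lines. DESeq2 called 773, 412, 9, 34 and, for LN229 siNT against mock, 1, with 15 for the difference between lines. With no filter on low counts edgeR called 1550, 1026, 69 and 502, with 70 and 247 for siNT against mock in LN229 and U251 and 144 for the difference. Each line alone gave 1 and 1 in LN229 and 7 in U251 against siNT. Unique exon reads gave 4 in U251 against siNT.

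Without TMM factors the split of higher and lower calls moved from 172 and 278 to 277 and 197 in LN229 siXRN2 against siNT, and from 78 and 105 to 126 and 92 against mock. Between the lines it moved from 4970 and 4563 to 6028 and 3733 in controls and from 3820 and 3906 to 5133 and 2896 in siXRN2, as the median of all genes went from 0.03 to 0.20 and from 0.02 to 0.25. The cause of these changes was not tested.

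Leaving out 1 library gave 1 to 3296 calls in LN229 siXRN2 against siNT, 1 to 658 against mock, 1 to 8 and 1 to 768 in U251, 0 to 1913 and 0 to 475 for siNT against mock in LN229 and U251, 8767 to 9911 and 5942 to 8710 between the lines in controls and siXRN2, and 0 to 1115 for the difference. Without LN229 siNT replicate 1 and U251 mock replicate 2 together, chosen after seeing the data, the counts were 1577 in LN229 against mock and 22 in U251 against siNT. Where 1 library was left in a group, it is assumed to vary like the other groups.

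Same-numbered replicates deviated together by correlations of -0.04 to 0.07, so the numbers share only a label. With the replicate block edgeR called 573, 215, 1 and 7 genes, 1 for U251 siNT against mock, 8207 and 6651 between the lines, and 0 for the difference. Under the block ITGB5 against siNT (adjusted p = 0.0620) and NEDD4L against mock (adjusted p = 0.0528) were no longer called in LN229.

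Depth limits TGFBR3 in U251 (0 to 2 reads), TGFB3 in LN229 (22 to 35 reads) and the intron reads of all receptors. With 2 libraries a group and 6 residual degrees of freedom, small differences could not be seen.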
